A study of Homo sapiens with 8 samples.

Results

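Respiratory complexes I to IV of the mitochondrial inner membrane are built mostly from proteins encoded in the nucleus, and the transcripts of 58 such subunits were followed here in glioblastoma cells treated with a PRMT5 inhibitor. The 58 genes were taken by name from the gene table, 36 for complex I, 4 for complex II, 7 for complex III and 11 for complex IV. All 58 were found among the 61906 genes listed, and all 58 passed the filter on low values described below. The list was set by name, with no threshold on a measured value.

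Complex I takes electrons from NADH and complex II takes them from succinate, and both pass them to ubiquinone. Complex III hands electrons from ubiquinol to cytochrome c and complex IV hands them from cytochrome c to oxygen, and complexes I, III and IV pump protons that drive the ATP synthase. Complexes I, III and IV combine nuclear-encoded subunits with subunits encoded by mitochondrial DNA, whereas complex II is entirely nuclear-encoded. The catalytic centres of complex IV are carried by mitochondrially encoded subunits, so its nuclear subunits are all supernumerary.

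RNAseq was performed on U251, an established human glioblastoma cell line of wild-type genotype by its labels. The 4 vehicle libraries came from cultures given DMSO and the 4 LLY-283 libraries from cultures given 100 nM LLY-283, which inhibits PRMT5, an arginine methyltransferase that makes symmetric dimethylarginine. Both treatments lasted 24 h, and the labels call the 4 samples of a group biological replicates without saying more of their origin. A single cell line and a single dose and time were measured.

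Values are TPM, the share of a library taken by a gene per unit of transcript length, scaled so that every library has the same total. The number of reads cannot be recovered from TPM, so that sequencing depth is unknown and counting error cannot be given. In bulk RNA, a lower level in every cell and fewer cells that express a gene cannot be told apart. PRMT5 itself stood at 100.0 ± 5.03 TPM in vehicle and 100.4 ± 4.91 TPM in LLY-283 (SD, n = 4; adjusted p = 0.944); the inhibitor acts on the enzyme, so this level does not check the labels. Of 8 glioma and astroglial markers, 6 passed the filter on low values, among them VIM, CD44, GFAP, NES and SOX2, and OLIG2 and AQP4 did not. Of these 6, CD44 was higher in LLY-283 and SOX2, NES and GFAP were lower at an adjusted p under 0.05. The share of the 6 that changed was 66.7%, against 26.2% of all genes that passed the filter. Of 8 markers of leukocytes, epithelium, endothelium, neurons and oligodendrocytes, only CD68 passed it, at 1.75 TPM in vehicle.

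LLY-283 replicate 4 stood apart from the other 7 libraries. The 13 mitochondrially encoded subunits took 6.97% of its TPM, against 9.80% to 10.7% in the others, and 42 of the 58 nuclear subunits had their highest value of the LLY-283 group in it. Vehicle replicate 3 held the lowest value of the vehicle group for 32 of the 58. Results are therefore given with and without LLY-283 replicate 4 where it matters. The share that either library has in a difference was not tested beyond leaving it out.

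The sequences that tie these genes to their known regulators are short. NRF1, ETS-family factors such as GABPA and YY1 are the factors best known for binding promoters of respiratory chain genes. RefSeq promoter windows on GRCh38.p14, running from 250 bases before to 50 after each start, were found for 49 of the 58 subunits, 57 windows in all. COX6C, CYC1, NDUFA4, NDUFB5, NDUFB9, NDUFC2, NDUFS5, SDHC and UQCRB had no entry. Windows were searched on both strands for the NRF1 motif (GCGCA and GCGC with any base between them), CCGGAAG (ETS) and AAGATGGC (YY1). The 10 matches in subunits whose transcript changed after LLY-283 (described below) are shown as 30 bases each on the strand of the gene, with the matching letters in capitals, because these factors are the ones best known for this gene family. A motif read on the other strand appears as its reverse complement, and none of the 10 overlaps another.
NDUFA9, NRF1, chr12:4649024-4649053, + strand: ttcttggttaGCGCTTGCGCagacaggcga
NDUFA12, NRF1, chr12:95003794-95003823, - strand: acctagctctGCGCACGCGCagagccacca
SDHD, NRF1, chr11:112086753-112086782, + strand: agctgtgtttGCGCATGCGCgacgggtgtg
UQCRFS1, NRF1, chr19:29213163-29213192, - strand: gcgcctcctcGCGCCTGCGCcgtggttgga
SDHB, ETS, chr1:17054142-17054171, - strand: cacccgggaaaCCGGAAGccgcctcccact
SDHD, ETS, chr11:112086785-112086814, + strand: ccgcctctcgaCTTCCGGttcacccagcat
UQCRH, ETS, chr1:46303641-46303670, + strand: agtgtgccgcaCTTCCGGccagatcgccgg
SDHB, YY1, chr1:17054004-17054033, - strand: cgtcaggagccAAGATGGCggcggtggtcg
NDUFS4, YY1, chr5:53560649-53560678, + strand: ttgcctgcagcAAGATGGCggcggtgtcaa
NDUFA9, YY1, chr12:4649113-4649142, + strand: gattgtgggaaAAGATGGCggctgccgcac

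The 4 NRF1 matches began 110 bases before the start in SDHD, 80 in NDUFA9, 116 in NDUFA12 and 31 in UQCRFS1, and the ETS matches 128 bases before it in SDHB, 77 in SDHD and 46 in UQCRH. The 3 YY1 matches lay just after the start, at base 11 in SDHB and NDUFA9 and at base 22 in NDUFS4. NRF1 letters were present in 17.5% of the 57 member windows, against 10.1% of the 15174 windows of all genes tested and 5.78% of all 35116 windows. ETS letters were present in 24.6%, 17.1% and 10.3% of the same sets, and YY1 letters in 15.8%, 4.79% and 2.89%. NRF1 letters stood in 4 of the 11 windows of subunits that changed and 6 of the 46 of the others, and YY1 letters in 3 and 6. ETS letters were about as frequent in both, in 3 of 11 (27.3%) and 11 of 46 (23.9%). The 46 windows came from 38 genes, with 4 for NDUFC1, while the 11 windows came from 11 genes. Repeated windows of a gene were counted separately, so these shares do not weigh every gene alike. The SP1 letters GGGCGG stood in 61.4% of the member windows, against 65.6% of those of all genes tested. They stood in 3 of the 11 windows of subunits that changed (27.3%) and 32 of the 46 of the others (69.6%). This gap was wider than that of NRF1 or YY1 letters and ran the other way. The NF-Y letters CCAAT stood in 28.1% of the member windows, against 35.5%. The TATA box letters TATAAA stood in 8.77%, against 6.23%. By complex, NRF1 letters were found in 6 of 39 windows for complex I, 2 of 3 for complex II, 2 of 5 for complex III and 0 of 10 for complex IV, where ETS letters stood in 5 of 10. Of the 11 changed subunits with a window, NDUFV1 and NDUFAB1, which rose, and NDUFB1 and NDUFV3, which fell, held none of the motifs for NRF1, ETS and YY1. A match is a description of letters and not of binding, and these shares were not tested.

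The level of the subunits in vehicle-treated cells spanned a wide range within each complex. In the vehicle libraries the median subunit stood at 168.6 TPM in complex I, 107.8 in complex II, 309.2 in complex III and 462.3 in complex IV. The highest subunit exceeded the lowest 29.3 times in complex I, 14.7 times in complex III, 3.57 times in complex IV and 3.18 times in complex II. NDUFS5, a small membrane-arm subunit, led complex I at 749 ± 10.6 TPM, and NDUFV3, at the NADH-oxidising tip, was lowest at 25.6 ± 1.45 TPM. SDHB and SDHA marked the ends of complex II, UQCRH and UQCRFS1 those of complex III, and COX7B and COX5B those of complex IV.

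The order of the levels was nearly the same in both groups in complexes II, III and IV, and less so among the closely spaced subunits of complex I. All 4 ranks in complex II, all 7 in complex III, 9 of 11 in complex IV and 16 of 36 in complex I were the same in both groups, and no subunit moved more than 5 ranks within its complex. In complex I, 23 of the 35 neighbouring pairs in this order had overlapping vehicle libraries, so that most neighbours there did not differ beyond their spread. In complex II no neighbouring pair overlapped, in complex III 2 of 6 did and in complex IV 3 of 10 did. The spread between replicates was small, with a median coefficient of variation over the 58 genes of 3.50% in vehicle and 4.68% in LLY-283.

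**Figure D1:**
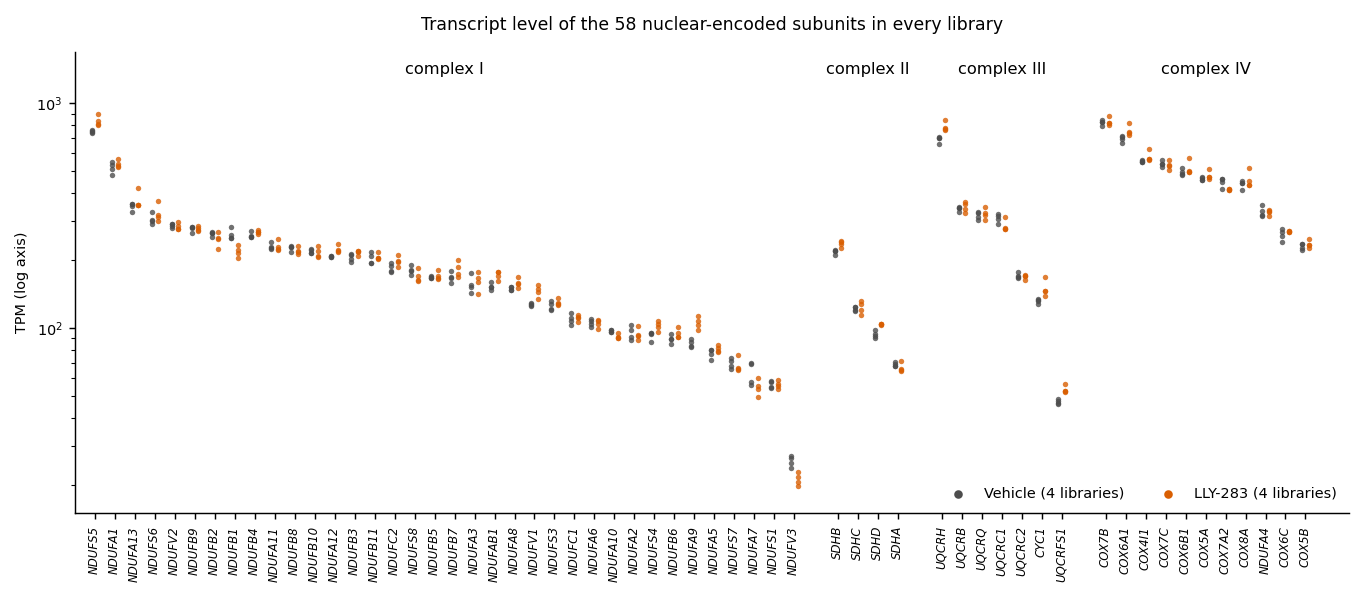
Level of each of the 58 subunits in every library, in TPM on a log axis, with grey points for the 4 vehicle and orange points for the 4 LLY-283 libraries, ordered by vehicle mean within each complex. Group means run from 21.3 TPM (NDUFV3, LLY-283) to 837 TPM (NDUFS5, LLY-283), and the groups lie close together at every gene.

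To determine how LLY-283 affected these transcripts, log2(TPM + 0.1) was compared between the groups with limma over 14478 genes, those averaging 1 TPM or more, with Benjamini-Hochberg adjustment over all of them. Of the 58 subunits, 13 changed at an adjusted p under 0.05, which is 22.4% against 26.2% of all genes tested. Of these, 11 were higher in LLY-283, where 8.61% of all genes tested were higher, and 2 were lower, where 17.6% of all genes were lower. This split of all genes depended on the scaling of TPM, since 12.9% were higher and 12.6% lower with quantile normalization and 13.3% and 12.9% with median-of-ratios scaling. The subunits then had 12 higher and 4 lower, and 13 higher and 2 lower. None changed by more than 1.5-fold, a size reached together with the threshold by 3.87% of all genes. The groups did not overlap for 15 subunits (25.9%), against 29.2% of all genes, and these 15 were the 13 that changed together with NDUFA10 and COX6A1. The share of subunits that changed was thus close to that of all genes, with small changes that were more often upward.

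The log2 fold changes ran from -0.26 to 0.30, with 39 above 0 and 19 below. Their median was 0.04, against -0.05 for all genes tested. For the 5875 genes whose mean TPM lay within the range of the subunits the median was -0.002, and 32.8% of them changed. Of these 5875 genes, 881 were higher in LLY-283 and 1046 were lower, a more even split than that of all genes tested. With quantile normalization the median of the subunits was 0.02 against 0.01 for all genes, and the gap between them shrank from 0.086 to 0.0082. Without LLY-283 replicate 4 the median of the subunits was 0.01, and 17 changed, 11 upward and 6 downward, against 28.9% of all genes. Without Vehicle replicate 3 there were 7 higher and 3 lower, when 20.2% of all genes changed. With the mitochondrially encoded genes left out of the totals there were 12 higher and 5 lower, when 25.9% of all genes changed. With a trend on GC content and transcript length removed from every library, 34 subunits were higher and 1 was lower. The median of the subunits was then 0.16, against 0.03 for all genes. In that setting 19.4% of all genes were higher, 11.4% lower and 30.8% changed in either direction, so that the share of subunits that changed was no longer close to that of all genes. The upward count therefore depended on this choice. The subunits have short transcripts, with a median of 751 bases, and 90.3% of the genes tested with a length were longer than that.

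**Figure D2:**
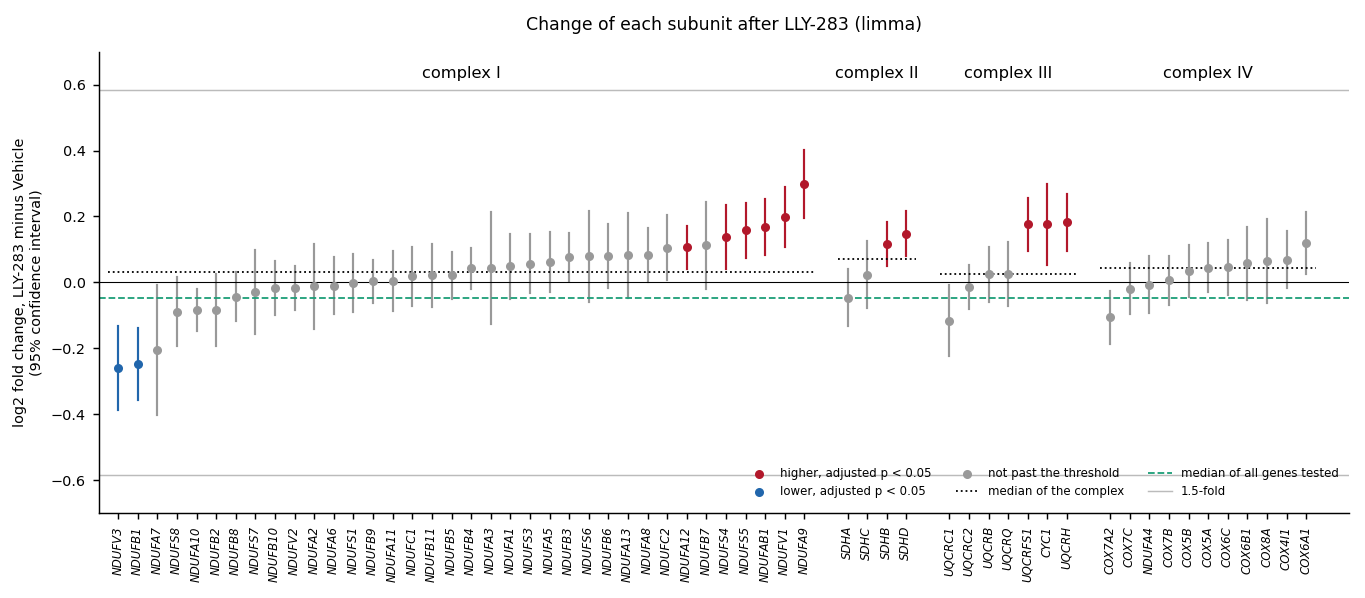
Log2 fold change (LLY-283 minus vehicle) of each subunit with its 95% confidence interval, ordered by size within each complex, red or blue where the adjusted p is under 0.05. Changes lie between -0.26 and 0.30, inside the grey lines for 1.5-fold, and the median of each complex lies above that of all genes tested (dashed).

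Complex I, the NADH dehydrogenase, had 6 of the 36 subunits listed here higher and 2 lower, with a median log2 fold change of 0.03. The share of the 36 that changed was 22.2%, close to the 26.2% of all genes tested. With the trend on GC content and length removed, 23 of the 36 changed, when 30.8% of all genes did. Of the 6 listed core subunits of the peripheral arm, which carry the flavin and iron-sulfur centres, NDUFV1 alone rose. NDUFV1 binds the flavin that oxidises NADH. It stood at 127, 129, 125 and 128 TPM in the vehicle libraries and at 149, 155, 145 and 135 TPM in the LLY-283 libraries. Every LLY-283 library lay above every vehicle library (log2 fold change 0.20, SE 0.041, adjusted p = 0.00699), and replicate 4 was here the lowest of its group. The other listed core subunits, NDUFS1, NDUFS3, NDUFS7, NDUFS8 and NDUFV2, lay between -0.09 (NDUFS8) and 0.06 (NDUFS3) and did not pass the threshold.

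NDUFA9, a supernumerary subunit beside the ubiquinone site, showed the largest change of the 58. Its vehicle libraries stood at 86.5, 82.7, 83.6 and 89.8 TPM and its LLY-283 libraries at 107, 103, 98.3 and 113 TPM. The groups were well separated, and the mean rose by 23.1% (log2 fold change 0.30, SE 0.046, adjusted p = 0.00172). A protein-coding gene that the annotation places over NDUFA9 on the same strand, ENSG00000255639, stood at 9.33 ± 0.822 TPM in vehicle and 7.93 ± 1.34 TPM in LLY-283, with overlapping groups and the lower mean in LLY-283.

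Among the other supernumerary subunits of the peripheral arm, NDUFS4 and NDUFA12 rose and NDUFV3 fell. NDUFS4, which stabilises the NADH-oxidising module and is a frequent site of Leigh syndrome mutations, stood at 95.2, 94.6, 87.2 and 95.6 TPM in vehicle and at 96.4, 107, 102 and 105 TPM in LLY-283 (log2 fold change 0.14, SE 0.043, adjusted p = 0.0414). Its vehicle replicate 3 lay far below the other vehicle libraries, and the groups only just separated. NDUFA12, which sits between the NADH and ubiquinone modules, stood at 209, 207, 209 and 208 TPM in vehicle and at 224, 218, 219 and 236 TPM in LLY-283 (log2 fold change 0.11, SE 0.029, adjusted p = 0.0257). The vehicle libraries of NDUFA12 were the tightest of all 58 subunits. NDUFS4 lost the threshold without any 1 of the 4 vehicle libraries or of LLY-283 replicates 2, 3 and 4 (adjusted p 0.0616 to 0.107). NDUFA12 lost it without any 1 of the 4 vehicle libraries or LLY-283 replicate 1 (adjusted p 0.0528 to 0.0656).

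NDUFV3, a small subunit of the NADH-oxidising module, showed the largest decrease. It stood at 25.0, 26.4, 27.0 and 23.8 TPM in the vehicle libraries and at 19.9, 20.8, 23.0 and 21.7 TPM in the LLY-283 libraries, and all 4 LLY-283 values were below all vehicle values (log2 fold change -0.26, SE 0.057, adjusted p = 0.00996). NDUFA7, of the same arm, had a difference of -0.21 that did not pass (adjusted p = 0.117), with overlapping groups and the widest vehicle spread of the 58. NDUFA2, NDUFA5, NDUFA6 and NDUFS6 lay between -0.01 and 0.08.

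NDUFAB1, the mitochondrial acyl carrier protein that occurs in both arms of complex I and also serves fatty acid synthesis, rose by 12.5%. It stood at 152, 159.7, 148 and 153 TPM in vehicle and at 178, 171, 162 and 178 TPM in LLY-283 (log2 fold change 0.17, SE 0.038, adjusted p = 0.0103). The lowest LLY-283 library, replicate 3, was still above the highest vehicle library.

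The 20 supernumerary subunits of the membrane arm, which surround the proton-pumping core, had 1 subunit higher and 1 lower. The share of the 20 that changed was 10%, against 26.2% of all genes tested. NDUFS5, the most abundant complex I transcript, stood at 744, 758, 736 and 757 TPM in vehicle and at 810.1, 832, 803 and 901 TPM in LLY-283 (log2 fold change 0.16, SE 0.037, adjusted p = 0.0128). Replicate 4 was the highest of its LLY-283 libraries, and the other 3 were also above all vehicle libraries. NDUFB1, a small subunit of the far end of the membrane arm, stood at 281, 252, 260.4 and 252 TPM in vehicle and at 222, 235, 206 and 217 TPM in LLY-283, and its mean fell by 15.7% (log2 fold change -0.25, SE 0.048, adjusted p = 0.00572). The groups of NDUFB1 did not overlap, yet with the trend on GC content and length removed its difference was -0.10 (adjusted p = 0.301); at 317 bases its transcript was the shortest of the 58.

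The other 18 membrane-arm subunits lay between -0.08 (NDUFA10) and 0.11 (NDUFB7). NDUFA10 stood at 97.9, 96.1, 96.6 and 98.5 TPM in vehicle and at 91.6, 90.0, 90.2 and 95.6 TPM in LLY-283, so its groups did not overlap although its adjusted p was 0.0587. NDUFA13, a subunit needed for assembly of the membrane arm, had 3 LLY-283 libraries between 352 and 353 TPM and replicate 4 at 418 TPM, with a difference of 0.08 (adjusted p = 0.324). Without LLY-283 replicate 4, NDUFA10, NDUFB2 and the core subunit NDUFS8 passed the threshold downward, at -0.10, -0.12 and -0.13 (adjusted p = 0.0114, 0.0493 and 0.0283). With the trend on GC content and length removed they lay at -0.02, 0.07 and 0.04, none of them past the threshold.

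**Figure D3:**
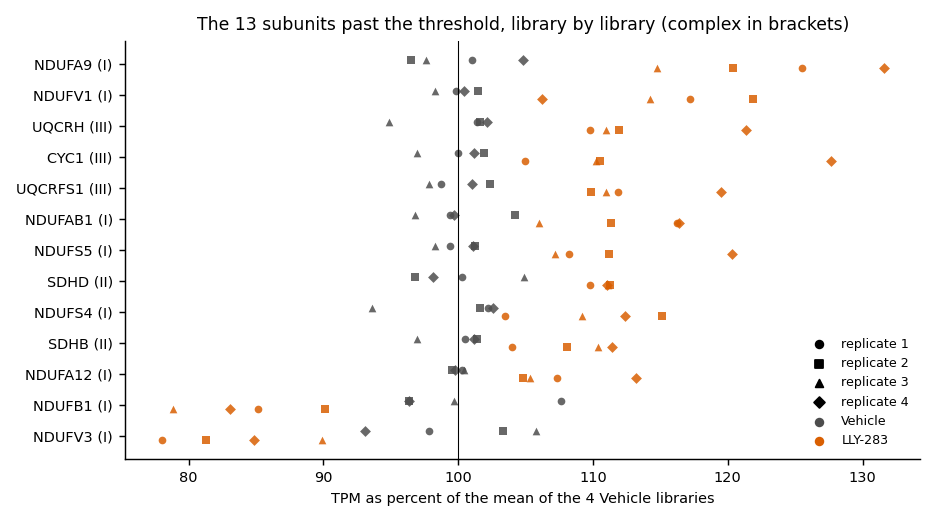
TPM of the 13 subunits that changed, in every library, as percent of the mean of the 4 vehicle libraries, with replicate numbers as symbols and LLY-283 in orange. For the 11 higher subunits every orange point lies to the right of every grey point, and for NDUFB1 and NDUFV3 to the left; replicate 4 is the highest LLY-283 library of each higher subunit except NDUFV1, NDUFS4 and SDHD.

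Complex II, the succinate dehydrogenase, also serves the citric acid cycle. Of its 4 subunits, SDHB and SDHD were higher, where 8.61% of all genes tested were higher. The median log2 fold change over the 4 was 0.07. SDHB carries the iron-sulfur centres. It stood at 219.8, 222, 212 and 221 TPM in vehicle and at 228, 236, 242 and 244 TPM in LLY-283 (log2 fold change 0.12, SE 0.030, adjusted p = 0.0184), with vehicle replicate 3 the lowest and no overlap. Its adjusted p was 0.0513 without Vehicle replicate 3 and 0.0519 without LLY-283 replicate 3.

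SDHD, a membrane anchor that helps form the ubiquinone site, stood at 94.2, 90.9, 98.5 and 92.2 TPM in vehicle and at 103, 104, 104 and 104 TPM in LLY-283 (log2 fold change 0.15, SE 0.031, adjusted p = 0.00735). The LLY-283 libraries were nearly identical, and all lay above the vehicle libraries. SDHC, the other anchor, had a difference of 0.02 (95% confidence interval -0.08 to 0.13). SDHA, the flavoprotein that oxidises succinate and the lowest of the complex, stood at 70.7, 67.6, 67.5 and 69.4 TPM in vehicle and at 64.4, 64.9, 66.0 and 71.4 TPM in LLY-283, which overlapped (-0.05, adjusted p = 0.412). The 4 pseudogene copies of SDHA that the table lists summed to 94.2% of its vehicle level, so reads may be split among them and its value is uncertain. With these copies added, the log2 ratio of the group means was -0.15 in place of -0.05.

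The sum over complex II was the only one of the 4 whose groups did not overlap. It stood at 503.2 ± 2.68 TPM in vehicle and 531.9 ± 15.3 TPM in LLY-283, 5.71% higher, and 4.40% higher without LLY-283 replicate 4. This sum includes SDHA, whose value is uncertain. It leaves out the pseudogene copies of SDHA, at 64.8 TPM in vehicle and a lower 53.6 TPM in LLY-283. The sums over the listed nuclear subunits of complexes I, III and IV were 3.05%, 5.15% and 2.34% higher, with overlapping groups. Without LLY-283 replicate 4 they were 1.15%, 2.77% and 0.666% higher.

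Complex III, the cytochrome bc1 complex, had 3 of the 7 subunits listed here higher, where 8.61% of all genes tested were higher. None of the 7 was lower, and their median was 0.03. UQCRC1 alone was lower at an unadjusted p under 0.05. UQCR10 and UQCR11, nuclear subunits of the complex outside this list, did not pass, at 0.09 (adjusted p = 0.192) and 0.06 (adjusted p = 0.481). Both nuclear catalytic subunits rose. UQCRFS1, the Rieske iron-sulfur protein and the lowest transcript of the complex, stood at 46.5, 48.2, 46.1 and 47.6 TPM in vehicle and at 52.7, 51.8, 52.3 and 56.3 TPM in LLY-283 (log2 fold change 0.18, SE 0.036, adjusted p = 0.00682). CYC1, cytochrome c1, stood at 132, 135, 128 and 134 TPM in vehicle and at 139, 146, 146 and 169 TPM in LLY-283 (log2 fold change 0.18, SE 0.055, adjusted p = 0.0404). CYC1 lost the threshold without any 1 of the 4 vehicle libraries or of LLY-283 replicates 2 and 3 (adjusted p 0.0608 to 0.0990). Both were highest in LLY-283 replicate 4, and without it their other LLY-283 libraries still lay above all vehicle libraries. Pseudogene copies of UQCRFS1 summed to 14.8% of its vehicle level.

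UQCRH, the acidic hinge protein that lies between cytochrome c1 and cytochrome c, led the complex. It stood at 702, 703, 657 and 707 TPM in vehicle and at 760.0, 775, 768 and 840.1 TPM in LLY-283, without overlap (log2 fold change 0.18, SE 0.039, adjusted p = 0.00836). UQCRHL is a near-identical copy of UQCRH, and the sum of both was 789.5 ± 33.7 TPM in vehicle and 898.3 ± 44.9 TPM in LLY-283, a log2 ratio of 0.19. The core proteins UQCRC1 and UQCRC2, which face the matrix, did not pass, at -0.12 (adjusted p = 0.105) and -0.01. UQCRC1 had 3 LLY-283 libraries between 275 and 279 TPM and replicate 4 at 311 TPM, and without that library its difference was -0.16 (adjusted p = 0.0101). UQCRB and UQCRQ, which help hold cytochrome b, lay at 0.02 and 0.03.

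Complex IV, cytochrome c oxidase, had none of its 11 nuclear subunits past the threshold with limma, and 2 at an unadjusted p under 0.05. Their differences lay between -0.11 and 0.12 with a median of 0.05, and all 95% confidence intervals lay between -0.19 and 0.21. With the trend on GC content and length removed, 7 of the 11 were higher, where 19.4% of all genes were higher, and with quantile normalization 3 of the 11 changed, near the 25.5% of all genes. COX7B, the most abundant of the 58 over all 8 libraries, stood at 796, 826, 824 and 847 TPM in vehicle and at 819, 874, 815 and 802 TPM in LLY-283. COX5B, the lowest of the complex, which binds zinc, stood at 223, 236, 226 and 236 TPM and 235, 235, 226 and 249 TPM. The groups overlapped for both, with differences of 0.01 and 0.04.

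The complex IV subunits at an unadjusted p under 0.05 had differences of opposite sign. COX6A1, the liver-type isoform of subunit VIa, stood at 668, 707, 694 and 715 TPM in vehicle and at 736, 744, 725 and 822 TPM in LLY-283, without overlap (adjusted p = 0.0632). COX7A2, the liver-type isoform of subunit VIIa, stood at 461, 449, 414 and 462 TPM in vehicle and at 417, 412, 413 and 416 TPM in LLY-283 (-0.11, adjusted p = 0.054). Vehicle replicate 3 of COX7A2 fell inside the LLY-283 values, and without it the difference was -0.14 (adjusted p = 0.00658). With the trend on GC content and length removed it was 0.04. COX4I1, COX5A, COX6B1, COX6C, COX7C, COX8A and NDUFA4 lay between -0.02 and 0.07. Of the muscle, lung and testis isoforms, COX4I2, COX6A2, COX7A1 and COX7B2 were listed at 0 in all 8 libraries. Of 11 further subunits and isoforms, these included, 5 passed the filter, and limma called 0 of them (1 at an unadjusted p under 0.05).

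**Figure D4:**
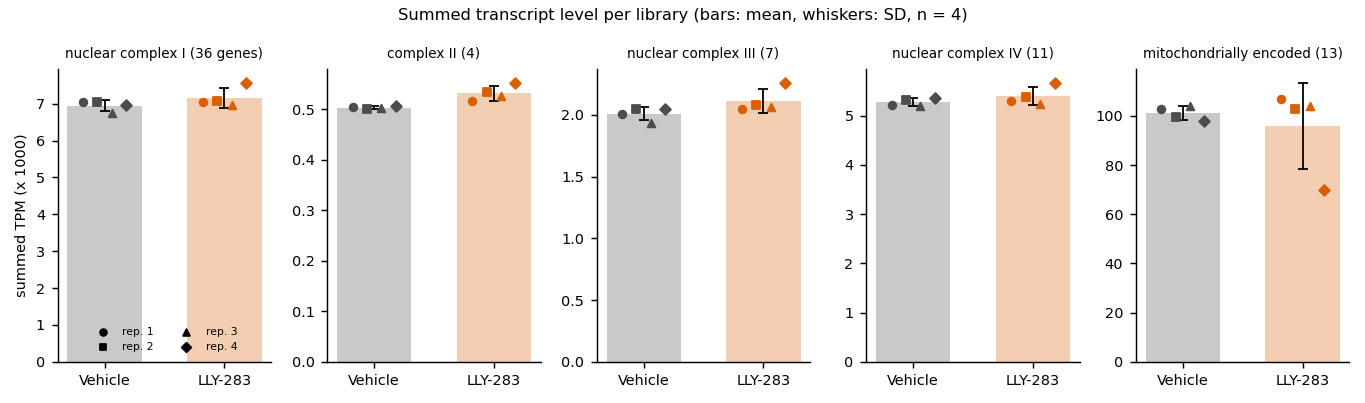
Summed TPM (in units of 1000) of the nuclear subunits of each complex and of the 13 mitochondrially encoded subunits per library; bars are means and whiskers the SD (n = 4), with replicate numbers as symbols. Replicate 4 (diamond) is the highest LLY-283 library in each nuclear sum and the lowest in the mitochondrial sum, at 69661 TPM.

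All 58 subunits together summed to 14731 ± 246 TPM in vehicle and 15199 ± 562 TPM in LLY-283, 3.17% higher with overlapping groups, and 1.31% higher without LLY-283 replicate 4. The ratio of this sum to that of the 13 mitochondrially encoded subunits was 0.143, 0.150, 0.138 and 0.152 in the vehicle libraries. In LLY-283 it was 0.140, 0.147 and 0.142 in replicates 1 to 3 and 0.230 in replicate 4. Replicates 1 to 3 thus lay within the vehicle range, and replicate 4 alone lay outside it. The 13 mitochondrially encoded transcripts were all below 0 in log2 fold change, and 1 passed the threshold. MT-ND6, a membrane subunit of complex I, stood at 749 ± 40.1 TPM in vehicle and 598 ± 23.9 TPM in LLY-283 (log2 fold change -0.33, SE 0.043, adjusted p = 0.000791), with no overlap. Except in MT-ND6 and MT-CYB, the sign of these differences rested on LLY-283 replicate 4. Without it the other 11 of the 13 lay above 0, with MT-ND4 (0.11, adjusted p = 0.00462) and MT-CO1 (0.06, adjusted p = 0.0390) past the threshold upward and MT-ND6 at -0.30 (adjusted p = 0.00104). The mitochondrial sum was 101064 ± 2877 TPM in vehicle and 95770 ± 17482 TPM in LLY-283, and the mean of LLY-283 replicates 1 to 3 was 104473 TPM, 3.37% above vehicle.

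The 45 subunits that did not pass the threshold included 8 with an unadjusted p under 0.05, and their 95% confidence intervals all lay between -0.40 and 0.24 on the log2 scale. Changes of 1.5-fold or more lay outside these intervals. The 58 genes lie on 20 chromosomes, with at most 8 on one (chromosome 19). Their GC content was close to that of all genes tested (median 47.8% against 48.1%), and they had 4 exons at the median against 8. For all genes tested, the median log2 fold change ran from -0.09 for transcripts of up to 500 bases to -0.04 for those above 4000 bases. In the same classes of length the subunits had medians of 0.05 (8 genes) and 0.02 (7 genes).

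**Figure D5:**
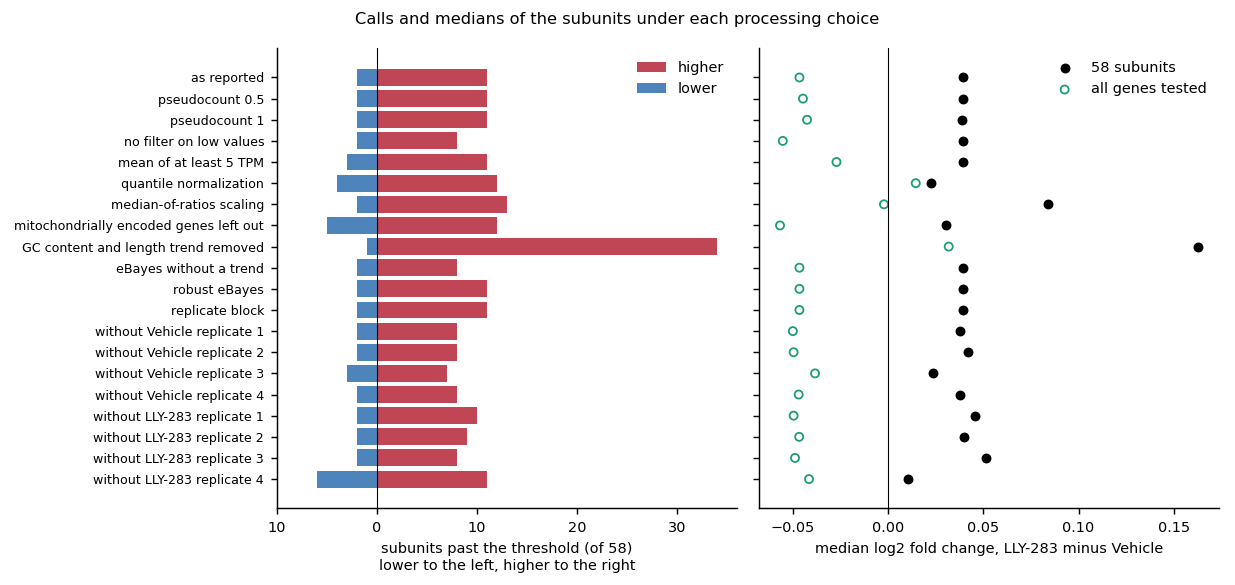
Left, number of the 58 subunits past the threshold, higher (red, to the right) and lower (blue, to the left), under each processing choice; right, median log2 fold change of the subunits (filled) and of all genes tested (open). The median of the subunits is above that of all genes in every choice and is highest, at 0.16, with the GC content and length trend removed; the gap to all genes is smallest, at 0.0082, with quantile normalization.

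Genes that work with these subunits changed in both directions. Of 18 subunits of ATP synthase, 2 were higher and 2 lower, with ATP5PF at 259 TPM in vehicle and 284 TPM in LLY-283 (0.13, adjusted p = 0.00735) and ATP5MF at 931 and 843 TPM (-0.14, adjusted p = 0.0165). The share of the 18 that changed was 22.2%, against 26.2% of all genes tested. The groups did not overlap for 7 of the 18 (38.9%), against 29.2% of all genes tested.

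Of 51 assembly factors of complexes I to IV, 6 were higher and 10 were lower, or 31.4%, against 26.2% of all genes tested. Among the 18 for complex I, 3 rose and 2 fell, led by NDUFAF7, a methyltransferase of the mitochondrial matrix, at 18.1 TPM in vehicle and 13.5 TPM in LLY-283 (log2 fold change -0.42, SE 0.045, adjusted p = 0.000302), and ECSIT, at 27.7 and 35.5 TPM (log2 fold change 0.36, SE 0.041, adjusted p = 0.000397). SDHAF2, which attaches the flavin to SDHA, was the only factor of complex II that changed (-0.21, adjusted p = 0.0107), and UQCC1 the only one of complex III (-0.22, adjusted p = 0.0117). Both were lower. The 23 factors of complex IV held 3 higher and 6 lower genes, or 39.1%, against 26.2% of all genes tested. Its 11 nuclear subunits held none in the same fit. They held 7 with the GC content and length trend removed and 3 with quantile normalization. The difference between factors and subunits was not tested. COA5 stood at 25.6, 25.5, 26.6 and 23.0 TPM in vehicle and at 14.7, 15.5, 16.9 and 15.5 TPM in LLY-283 and was the only gene of these lists changed by more than 1.5-fold (log2 fold change -0.68, SE 0.058, adjusted p = 9.44e-05). LRPPRC, which stabilises mitochondrial mRNA, stood at 72.0 and 93.1 TPM (log2 fold change 0.37, SE 0.038, adjusted p = 0.000237).

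Of 13 tested regulators of mitochondrial biogenesis, 4 rose and 2 fell, or 46.2%, against 26.2% of all genes tested. POLG, the mitochondrial DNA polymerase, stood at 54.5 TPM in vehicle and 71.2 TPM in LLY-283 (log2 fold change 0.38, SE 0.040, adjusted p = 0.000274). TFAM, which packages and transcribes mitochondrial DNA, TFB2M and PPRC1 rose as well, by 0.22, 0.17 and 0.18 on the log2 scale. NRF1, the factor whose letters were searched above, stood at 13.4 and 11.6 TPM (log2 fold change -0.20, SE 0.056, adjusted p = 0.0259), and TFB1M was the other that fell (-0.38). Of 7 electron carriers and feeders, GPD2, which feeds electrons from glycerol phosphate, and CYCS, cytochrome c, rose, while SQOR and ETFB fell. The share of the 7 that changed was 57.1%, against 26.2% of all genes tested. GPD2 stood at 70.5 and 84.2 TPM (log2 fold change 0.26, SE 0.045, adjusted p = 0.00337), and SQOR, which oxidises sulfide, at 26.7 and 21.6 TPM (log2 fold change -0.31, SE 0.061, adjusted p = 0.00571).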

How the data were processed

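Total RNA of U251 cultures was captured with oligo-dT beads, so that poly(A) transcripts were measured, and cDNA was made with random primers. The authors trimmed adapters, mapped reads to GRCh38 (hg38) with STAR and estimated gene levels with RSEM, and they deposited TPM per gene and library. The submitters' processing notes name cutadapt 1.18, STAR 2.7.0f and RSEM 1.3.1, and the study's methods name other releases of STAR and RSEM. The strandedness of the counting is not given in the sources used here, so overlapping genes are uncertain. Of the 58 subunits, 22 overlap another protein-coding gene on either strand. TPM keeps no read numbers, so depth and counting error are unknown. TPM is also a share, so that a change in a few abundant genes shifts all others.

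The deposited TPM were put on the scale log2(TPM + 0.1), and 14478 genes averaging 1 TPM or more were kept. LLY-283 and vehicle were compared in limma 3.58.1 (R 4.3.3), using lmFit and then eBayes with its mean-variance trend and no covariates, followed by Benjamini-Hochberg adjustment. A gene changed where its adjusted p was under 0.05. Fold changes refer to that scale. Tests that need counts were not used, and no test of gene lists was run. The correlation of log2 values between replicates was 0.963 to 0.971. The labels do not say how the cultures were kept apart, so p-values measure only the spread between these samples, which may be technical. The procedure was tested on simulated data with independent noise in every library. The changes put in were larger than most seen in the subunits, so this test does not bear on changes as small as theirs.

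The subunits and the lists of related genes were chosen with earlier results of these data known. Genes described library by library are the subunits that changed, and the highest and lowest of each complex. From the other lists, the changed gene of smallest p in each direction is given, with PRMT5. The remaining names account for every subunit or were chosen after their values were seen. Positions, transcript lengths and GC content came from GENCODE release 44 by gene identifier (14443 of 14478 genes matched), using the Ensembl canonical transcript, and promoter windows from RefSeq (GRCh38.p14). The 19 alternatives included other pseudocounts, filters, scalings and forms of eBayes, a replicate block, and each library left out in turn. The remaining alternative removed a trend on GC content and length (natural splines with 4 degrees of freedom each). That trend was taken from each library's deviations from the gene means before the fit, which also centred each library. It therefore acted on the spread between replicates as well as on the fold changes.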

Additional observations from a re-analysis of the deposited data

Results flagged for a closer look

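In 12 of the 116 groups of 4 libraries (58 subunits in each treatment), the highest or the lowest library lay apart from the other 3 by Dixon's criterion, which is 10.3%, where chance gives about 1 in 20. LLY-283 replicate 4 was the high library in 6 of the 12, at 418 TPM for NDUFA13, 76.2 TPM for NDUFS7, 311 TPM for UQCRC1, 629 TPM for COX4I1, 509 TPM for COX5A and 571 TPM for COX6B1. The other 3 LLY-283 libraries of NDUFA13 lay between 352 and 353 TPM. This library is also the one in which the mitochondrially encoded subunits took the smallest share, 6.97%, and the part of that share in these values was not tested beyond leaving the library or those genes out.

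Vehicle replicate 3 was the low library in 4 of the 12, at 219 TPM for NDUFB8, 266 TPM for NDUFB9, 87.2 TPM for NDUFS4 and 657 TPM for UQCRH. The remaining low libraries were LLY-283 replicate 1 for SDHD, at 103 TPM where the others lay between 104.3 and 104.5 TPM, and LLY-283 replicate 3 for UQCRC2, at 164 TPM where the others lay between 170.4 and 172 TPM.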

How the results depend on the processing

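Of the 13 subunits that changed, 8 passed the threshold under all 19 alternatives (NDUFA9, NDUFAB1, NDUFS5, NDUFV1, NDUFV3, SDHD, UQCRFS1 and UQCRH), and all 13 kept their direction. NDUFB1 was lost only with the GC content and length trend removed, SDHB in 2 alternatives, NDUFA12 in 7, CYC1 in 8 and NDUFS4 in 11. Of the 45 others, 17 passed under no alternative and 20 passed only with the GC content and length trend removed. That alternative gave 35 changed subunits (34 higher, 1 lower), a median of 0.16 over the 58, and medians of 0.16, 0.19, 0.14 and 0.17 for complexes I, II, III and IV. It also turned NDUFV2 from -0.02 to 0.11 (adjusted p = 0.0408), the only value of 1102 that passed the threshold with the opposite sign. In all, 25 of the 58 changed sign in some alternative, none of them among the 13, and 14 did so in this one, among them COX7A2 (from -0.11 to 0.04), NDUFS8 (-0.09 to 0.04) and NDUFB2 (-0.08 to 0.07). The cause was not tested. Median-of-ratios scaling gave medians of 0.084 over the 58 and 0.12 for complex II. Quantile normalization gave 4 lower subunits and leaving out the mitochondrially encoded genes gave 5. A required change above 1.5-fold left 0. Leaving out each library in turn gave 10 to 17 changed subunits, 7 to 11 higher and 2 to 6 lower, when 19.3% to 28.9% of all genes changed, with the extremes of the split at Vehicle replicate 3 (7 higher) and LLY-283 replicate 4 (6 lower). Without a filter on low values, 8 were higher and 2 lower, when 9.44% of all genes changed. Same-numbered libraries did not deviate together (correlations of -0.04, 0.03, -0.002 and -0.09), and no library correlated best with its own number, so the numbers were not taken as pairs. With a replicate block the count was also 13 (11 higher, 2 lower), without NDUFS4 (adjusted p = 0.0521) and with COX6A1 (adjusted p = 0.0406), and 22.8% of all genes changed. TPM holds no depth, so the smallest change that could be seen is set by the spread between replicates, with a median SE of 0.039 on the log2 scale.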
